A study of Homo sapiens with 16 samples.

Results

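Replicate 1 of each group stood apart from replicates 2, 3 and 4 in a set of 16 Affymetrix PrimeView arrays of Nalm6. This established human line came from an acute lymphoblastic leukaemia of B-cell precursors. The 4 arrays whose titles carry replicate number 1 were compared with the 12 that carry number 2, 3 or 4, with the mean of each group in the model. They were chosen from the measured values, since these whole arrays differed from the rest, so the differences themselves are given as a description with no test. The labels give no separate culture, passage or date for number 1, and a culture state is not named in them, so the arrays are called replicate 1 here.

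The 4 groups were untreated control cells, control cells with prednisolone for 24 hours, untreated cells labelled as carrying active, overexpressed CASP1, and those cells with prednisolone for 24 hours. CASP1 is the inflammatory caspase that matures interleukin 1 beta, and the series title asks whether it makes leukaemia cells resistant to glucocorticoids by cutting their receptor. The label of the treated arrays spells the agent predisone and their protocol prednisolone, a synthetic glucocorticoid. All groups were Nalm6 in RPMI1640 with heat-inactivated serum and glutamine. The sources used here give no dose, construct or promoter, and do not say whether a line was 1 clone. Each group had 1 array of replicate 1 and 3 of the others. Values are log2 signals after RMA (robust multi-array average), on which 1 unit is a 2-fold change of signal. The CASP1 signal, by the brightest of its 9 probe sets, went against the label. The other probe sets are not given by line here. It read 7.69, 7.95, 7.59 and 7.76 in replicates 1 to 4 of the untreated control cells and 6.90, 7.08, 6.97 and 6.86 with prednisolone. In cells labelled CASP1 it read 6.05, 5.45, 5.62 and 5.64 untreated, and 5.38, 4.79, 4.87 and 5.05 with prednisolone. All 8 arrays of cells labelled CASP1 were below all 8 control arrays, so those cells are called by their label throughout. The line difference of CASP1 was smaller in replicate 1 by 0.55 (SE 0.15, limma adjusted p = 0.0277).

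Of 12 markers of the B-cell precursor, 11 were measured, and 9 of these 11 were above a signal of 7 on every array. VPREB1, part of the surrogate light chain, read 12.5 to 13.03 over the 16 arrays. The mean over myeloid markers was 3.49 to 3.85, and that over stromal and epithelial markers was 3.19 to 3.36. Across genes, replicate 1 correlated with its own group's other arrays at r = 0.9906 to 0.9927 in 3 groups and at 0.9832 to 0.9848 in treated cells labelled CASP1, against 0.995 to 0.9973 among the others. The SD of its deviation across the 18132 genes was 0.297, 0.279 and 0.286 in the untreated control, treated control and untreated cells labelled CASP1, and 0.404 in treated cells labelled CASP1. These deviations correlated across genes at r = 0.191 to 0.507 between groups, as a description of arrays that share 1 RMA run.

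The control transcripts added by the laboratory or the manufacturer also differed. Poly-A RNAs that are added before labelling were brighter in replicate 1, with a mean over 24 probe sets of 7.79 against 7.05 to 7.19 in untreated control cells and 8.35 against 7.38 to 7.73 in treated ones. In cells labelled CASP1 it was 8.30 against 7.41 to 7.69 untreated and 9.42 against 7.93 to 8.10 with prednisolone. Replicate 1 was the highest of its group each time, by 0.904 on average with an SD of 0.129 among replicates 2 to 4. The bioB and bioC transcripts, which are added before hybridization, had a mean difference of -0.443 and were lowest in replicate 1 in all 4 groups. Probe sets for 18S ribosomal RNA were higher in replicate 1 in all 4 groups, by 0.567 on average. The GAPDH 3' minus 5' difference, a sign of RNA quality, was highest in replicate 1 in all 4 groups too, by 0.084 on average (SD 0.0193 among the others), while that of beta-actin was above the others in 1 group and below them in 1. Background probe sets were higher in all 4 groups, by 0.108 (SD 0.0319). The part of these differences in the gene results was not tested.

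**Figure D1:**
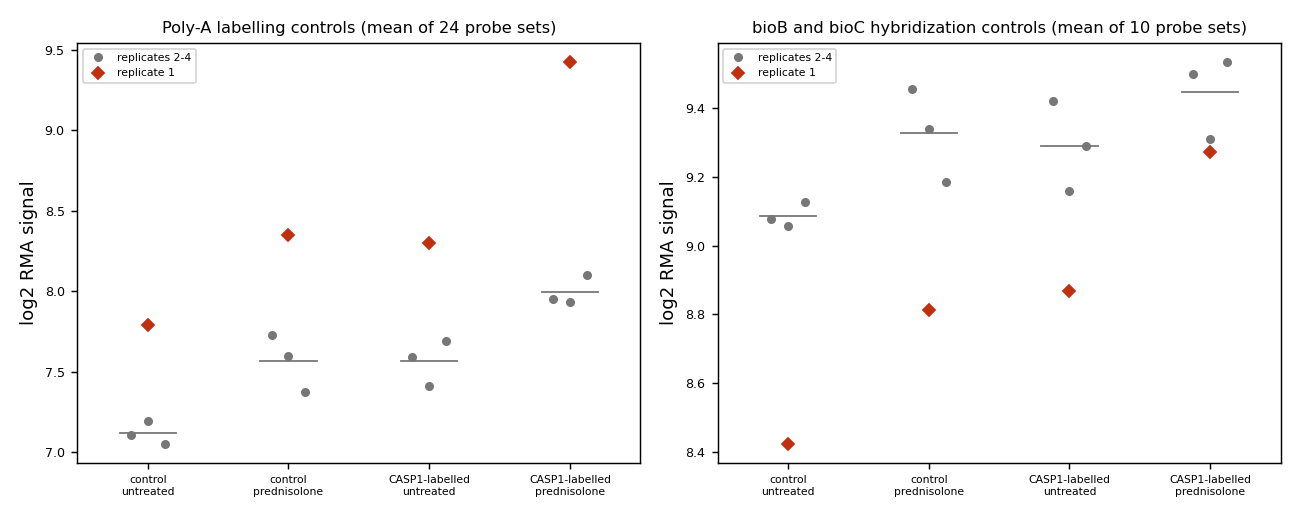
Mean log2 RMA signal of the poly-A labelling controls (left, 24 probe sets) and of the bioB and bioC hybridization controls (right, 10 probe sets) on each array, by group. Red diamonds are replicate 1, grey points replicates 2 to 4 and bars their mean. Replicate 1 is highest for the poly-A controls and lowest for bioB and bioC in each of the 4 groups.

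A gene was counted as different in replicate 1 when that array lay outside the range of the other 3 on the same side in all 4 groups. By that rule 1212 genes (6.68%) were higher and 1086 (5.99%) lower, and the median difference over all 18132 genes was 0.002. With a mean difference of at least 2-fold as well, 30 genes (0.165%) were higher and 40 (0.221%) lower. Just inside that limit were EID2 at 1.0058 and RGS1 at -1.0034, and just outside it EML2 at 0.9922 and PTPRN2 at -0.9944. Of these 70 genes, 54 had further probe sets, and 100 of the 111 further probe sets lay on the same side.

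Cells that lack oxygen stabilise the hypoxia-inducible factors (HIF), which bind a short motif in promoters and enhancers. Their targets move glucose use toward lactate, trigger removal of mitochondria and change collagen hydroxylation. Proliferating leukaemia cells express many of these genes in ordinary culture too, since growth signals raise glycolysis as well.

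The clearest shared difference was in the genes of glycolysis and hypoxia, which were lower in replicate 1. Of 31 genes in the list 29 were measured, 21 were below the range of replicates 2 to 4 in all 4 groups and none was above it. 8 of the 21 were at least 2-fold lower. The median of the list was -0.719, against 0.002 over all genes, and by group it was -0.818 in untreated control cells, -0.748 in treated control cells, -0.706 in untreated cells labelled CASP1 and -0.558 in treated ones. The list was chosen with earlier results of these data known, so its counts describe these arrays and are not independent evidence.

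BNIP3, which marks mitochondria for removal, read 9.30 in replicate 1 and 11.46, 11.55 and 11.47 in replicates 2 to 4 of the untreated control cells. It read 9.44 against 11.27, 11.37 and 11.28 in treated control cells, 9.07 against 10.56, 10.63 and 10.58 in untreated cells labelled CASP1, and 8.82 against 10.17, 10.19 and 10.19 in treated ones. Replicate 1 was the lowest array of every group by far more than the spread of the other 3, at 3.33-fold lower on average (log2 -1.74, SE 0.05, 4 against 12 arrays). P4HA1, a subunit of collagen prolyl hydroxylase, read 8.73 in replicate 1 against 10.26 to 10.43 in untreated control cells and 8.74 against 10.32 to 10.37 in treated ones. In cells labelled CASP1 it read 8.86 against 10.07 to 10.13 and 8.96 against 9.98 to 10.06. No group overlapped, and the mean difference was -1.38 (SE 0.05).

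**Figure D2:**
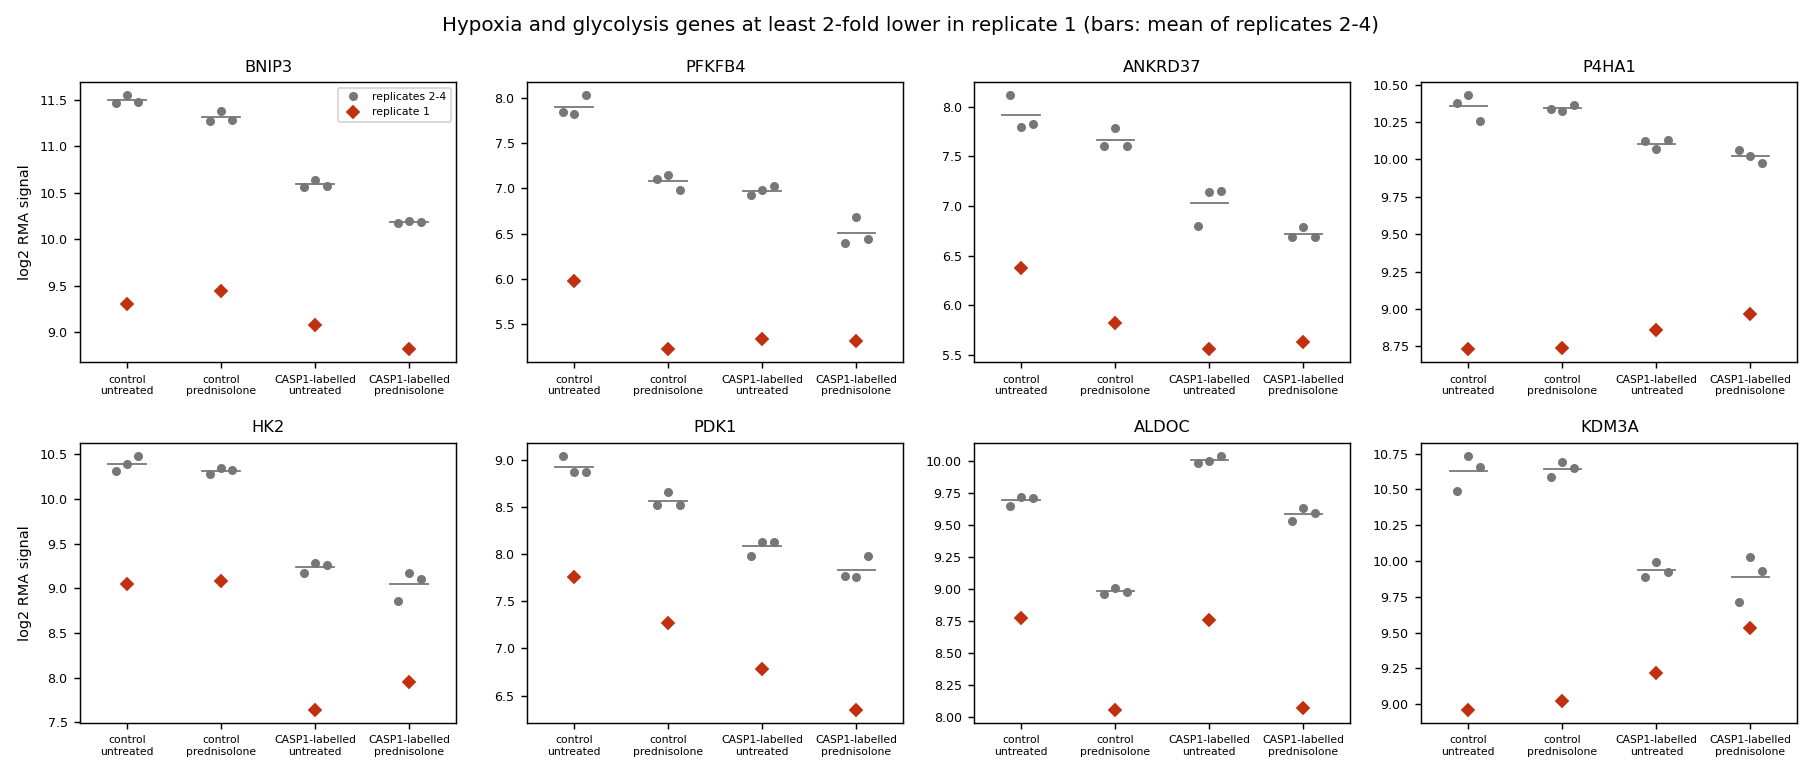
Log2 RMA signal by group for the 8 genes of the glycolysis and hypoxia list that were at least 2-fold lower in replicate 1. Red diamonds are replicate 1, grey points replicates 2 to 4 and bars their mean. Each diamond lies below its group's 3 points. The bars of BNIP3, PFKFB4, ANKRD37, P4HA1, HK2 and PDK1 are also lower in cells labelled CASP1.

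Genes of glucose entry, glucose trapping and the control of glycolysis were among the lower ones. HK2, the hexokinase that traps glucose, read 9.05 in replicate 1 against 10.31 to 10.48 in untreated control cells, 9.09 against 10.27 to 10.35 in treated ones, 7.64 against 9.17 to 9.28 in untreated cells labelled CASP1 and 7.95 against 8.86 to 9.17 in treated ones (mean difference -1.32, SE 0.06). PFKFB4, which sets the level of a sugar phosphate that drives glycolysis, was at -1.65 (SE 0.06), its relative PFKFB3 at -0.88 and the glucose transporter SLC2A1 at -0.72. In the lower part of the pathway ALDOC was at -1.16, ENO1 at -0.95, TPI1 at -0.86, LDHA, which makes lactate, at -0.66, and PGK1 and ALDOA at -0.55 each. GPI was at -0.10, PFKL at -0.08 and PKM, the last enzyme of the pathway, at -0.03, and none of these 3 lay outside the range in all groups.

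Of the other targets of HIF, PDK1, a kinase that inhibits pyruvate dehydrogenase, was at -1.31 (SE 0.06) and ANKRD37 at -1.49. The histone demethylase KDM3A was at -1.09 and the mitophagy receptor BNIP3L at -0.97. The growth factor VEGFA was at -0.94 and the MYC antagonist MXI1 at -0.89. EGLN1, a prolyl hydroxylase that marks HIF for destruction, was at -0.41. NDRG1 at -0.36, ADM at -0.20 and EGLN3 at 0.08 did not lie outside the range in all groups. Without the arrays of treated cells labelled CASP1, a choice made after seeing the data, the count below the range stayed at 21 of 29, beside 10.2% of all genes by that rule in 3 groups.

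To show where the known HIF core motif stands in the promoters of these genes, the 250 bases before the annotated start of 4 of them are printed from RefSeq (GRCh38.p14). The motif was searched as ACGTG or GCGTG on both strands, so its reverse complements CACGT and CACGC count too, and CACGTG holds it on both strands. The matches are in capitals, 5' to 3' on the gene's strand. BNIP3 lies at chr10:131981924-131982173, minus strand, ANKRD37 at chr4:185396591-185396840, plus strand, HK2 at chr2:74833877-74834126, plus strand, and ALDOC at chr17:28576896-28577145, minus strand.
BNIP3: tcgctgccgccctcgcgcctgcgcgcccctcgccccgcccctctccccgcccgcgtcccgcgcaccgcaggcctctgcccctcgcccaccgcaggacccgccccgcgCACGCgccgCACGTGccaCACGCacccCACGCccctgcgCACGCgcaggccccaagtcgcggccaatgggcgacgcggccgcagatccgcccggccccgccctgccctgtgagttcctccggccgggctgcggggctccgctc
ANKRD37: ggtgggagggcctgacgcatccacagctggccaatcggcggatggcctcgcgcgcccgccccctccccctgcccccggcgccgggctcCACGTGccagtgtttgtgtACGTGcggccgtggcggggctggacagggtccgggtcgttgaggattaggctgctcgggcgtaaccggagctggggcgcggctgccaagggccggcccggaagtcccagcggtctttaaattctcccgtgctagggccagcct
HK2: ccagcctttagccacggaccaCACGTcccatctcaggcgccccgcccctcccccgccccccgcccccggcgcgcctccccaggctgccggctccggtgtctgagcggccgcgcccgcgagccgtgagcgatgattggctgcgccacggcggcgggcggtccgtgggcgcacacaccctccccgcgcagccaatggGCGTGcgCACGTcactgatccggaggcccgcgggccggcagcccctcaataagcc
ALDOC: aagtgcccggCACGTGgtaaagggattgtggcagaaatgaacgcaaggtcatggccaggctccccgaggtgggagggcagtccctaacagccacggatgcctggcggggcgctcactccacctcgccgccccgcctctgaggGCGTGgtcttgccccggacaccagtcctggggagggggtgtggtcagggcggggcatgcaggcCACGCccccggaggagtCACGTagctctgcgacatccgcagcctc
BNIP3 held 6 matches, ANKRD37 3, HK2 3 and ALDOC 5. The 4 genes printed are those with the most matches among the 8 that were at least 2-fold lower. PFKFB4, P4HA1 and KDM3A held 1 match each and PDK1 held 0. Of the 8 genes that were at least 2-fold lower, 7 had a match in this window (87.5%), of the 26 list genes with a promoter 18 (69.2%), and of 14425 measured genes with one 7349 (50.9%). The motif is short and common, and a match is no binding site.

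The HIF list also differed between groups within replicates 2 to 4, where the arrays of replicate 1 played no part. With prednisolone 17 of 29 fell and 3 rose, beside 14.1% of all genes lower and 10.9% higher at an adjusted p under 0.05 (limma, all 18132 genes). The line labelled CASP1 had 17 genes lower and 5 higher than the control line, beside 15.8% and 14.1%. BNIP3 was lower in cells labelled CASP1 by a log2 difference of -1.01 (limma adjusted p = 3.19e-09), HK2 by -1.21 (adjusted p = 1.02e-08) and PDK1 by -0.79 (adjusted p = 4.34e-07).

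The line difference (cells labelled CASP1 minus control, mean of untreated and treated) was compared between replicate 1 and replicates 2 to 4. This contrast is another than the mean difference, but the same replicate 1 arrays, chosen for standing apart, enter it. Its p-values are therefore not independent of that choice. Over all genes 1000 (5.52%) had a more positive line difference in replicate 1 and 1113 (6.14%) a more negative one at a limma adjusted p under 0.05. In the list 7 of 29 were positive and 2 negative. KDM3A was the largest, at 1.11 (SE 0.13, limma adjusted p = 0.000235), and BNIP3 was at 0.59 (SE 0.09, adjusted p = 0.00137). In replicate 1 the 4 groups lay closer for BNIP3 than in the others, between 8.82 and 9.44. The prednisolone response of the list differed for 1 of 29, beside 0.75% of all genes positive and 1.42% negative in that contrast. This gene was BNIP3L, at 0.56 (SE 0.09, limma adjusted p = 0.0101).

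Other genes with large deficits were not in that list. COL5A1, a fibrillar collagen chain, had the largest difference, reading 5.75 in replicate 1 against 8.66, 8.92 and 8.86 in untreated control cells and 5.71 against 8.18, 8.17 and 8.19 in treated ones. The line labelled CASP1 read 5.98 against 8.97, 9.18 and 9.07 and 5.64 against 8.95, 9.13 and 9.11 (mean difference -3.01, SE 0.06). All 4 of its probe sets were lower in replicate 1. POFUT4 was at -1.75, RAB17, a small GTPase of vesicle traffic, at -1.65, and TSPAN8, a tetraspanin, at -1.55. HSPA1B, an inducible heat shock protein whose near-identical copy HSPA1A may share its probes, was at -1.34. ARRDC3, an arrestin that follows glucose supply, was at -1.41. TXNIP, the best-known relative of ARRDC3 in glucose sensing, was at -0.11 by its brightest probe set, which was not outside the range in all groups. All 5 TXNIP probe sets were lower on average, from -0.107 to -0.509, and 1 of them was below the range in all groups. CD69, an early activation marker, read 4.24 in replicate 1 against 6.95 to 6.97 in untreated control cells and 8.24 against 9.32 to 9.35 with prednisolone. NEDD9, an adhesion scaffold, read 4.95 against 7.69 to 7.84 in treated cells labelled CASP1 and 5.47 against 6.62 to 6.76 in untreated control cells.

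Among the genes that were higher in replicate 1, DLST, a subunit of the oxoglutarate dehydrogenase complex, read 8.95 against 7.33, 7.33 and 7.28 in untreated control cells and 9.09 against 7.47, 7.26 and 7.34 in treated ones. The line labelled CASP1 read 9.41 against 7.76, 7.94 and 7.88 and 9.67 against 7.81, 8.05 and 8.16, so replicate 1 was higher by 1.64 (SE 0.07). Of its 7 probe sets the 6 brightest were higher and the dimmest was at -0.096. RCC1, the exchange factor of the GTPase Ran, was at 1.64 (SE 0.11), ZNF428 at 1.47, OAZ2, which slows polyamine synthesis, at 1.42, ARPC1B, a subunit of the Arp2/3 complex, at 1.35 and LMNB1, the B-type lamin, at 1.23. RAD23B, a repair factor, was at 1.44 and AP2B1, a subunit of the clathrin adaptor, at 1.54, but for both another probe set disagreed.

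Among p53 targets, 8 of 23 measured were above the range in all 4 groups and 0 below, beside 6.68% of all genes above it. BAX, which opens the mitochondrial membrane, was at 1.13 (SE 0.13), the death receptor FAS at 0.93 (SE 0.06), BBC3, which neutralises BCL2 proteins, at 0.90, and CDKN1A, the cell cycle inhibitor p21, at 0.81. CDKN1A read 10.77 against 9.92 to 9.95 in untreated control cells, 9.45 against 8.95 to 9.08 in treated ones, 11.46 against 10.70 to 10.73 in untreated cells labelled CASP1 and 11.61 against 10.20 to 10.55 in treated ones. MDM2, the p53 inhibitor that p53 itself induces, was at -0.14 and GADD45A at -0.11, and neither lay outside the range in all groups. The line difference of MDM2 was more positive in replicate 1 by 0.98 (SE 0.09, limma adjusted p = 8.41e-05). The list's median was 0.18, lowest in treated control cells at 0.018 and highest in treated cells labelled CASP1 at 0.474. In the BCL2 family 5 of 16 were above the range, and BAX and BBC3 belong to both lists. The other 3 were BAK1 at 0.74, BCL2 at 0.56 by its brightest probe set and BIK at 0.43. Of the 6 BCL2 probe sets 3 were higher on average, and a dimmer one was below the range in all 4 groups, at -0.21. With the mean of the probe sets of a gene, 3 of 16 were above it.

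**Figure D3:**
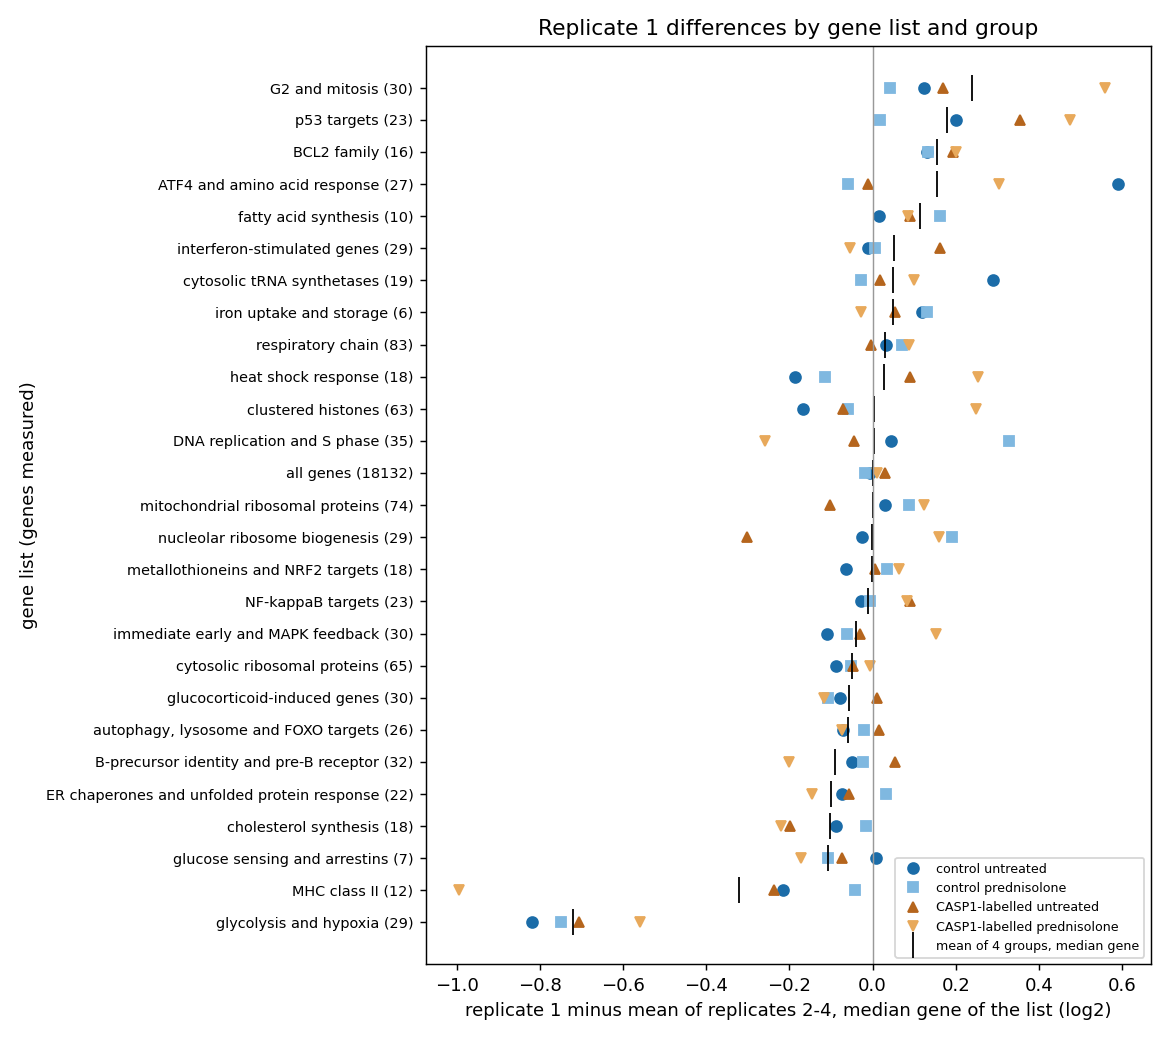
Median over the genes of each list of the difference between replicate 1 and the mean of replicates 2 to 4, by group (coloured symbols) and for the mean of the 4 groups (black ticks). Values are log2, with the number of genes measured in brackets. The glycolysis and hypoxia list is the only one below -0.5 in all 4 groups.

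Mitotic genes were higher in replicate 1, with the largest median in treated cells labelled CASP1. Of 30 genes of the G2 phase and mitosis 13 were above the range in all 4 groups and 0 below, beside 6.68% and 5.99% of all genes. The median by group was 0.123 in untreated control cells, 0.042 in treated ones, 0.169 in untreated cells labelled CASP1 and 0.558 in treated ones. CDC20, which activates the anaphase-promoting complex, read 11.26 in replicate 1 against 9.75 to 9.87 in treated cells labelled CASP1, and 9.46 against 8.82 to 8.97 in untreated control cells. Its prednisolone response differed in replicate 1 by 0.95 in cells labelled CASP1 and by -0.15 in control cells, and the difference between these was 1.11 (SE 0.19, limma adjusted p = 0.00929). PLK1, a mitotic kinase, was at 0.62 and AURKA, another, at 0.55. Without the treated cells labelled CASP1 the list's median was 0.116, with 14 above and 2 below in 3 groups, beside 10.9% and 10.2% of all genes.

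DNA replication genes had a median of 0.329 in treated control cells and -0.259 in treated cells labelled CASP1. Their line difference was more negative in replicate 1 for 15 of 35, beside 6.14% of all genes. UNG, which removes uracil from DNA, read 8.41 in replicate 1 against 7.28 to 7.46 in treated control cells and 7.14 against 7.29 to 7.54 in treated cells labelled CASP1. Its line difference changed by -0.72 (SE 0.11, limma adjusted p = 0.0015). In replicates 2 to 4 prednisolone lowered 33 of these 35 genes, beside 14.1% of all genes.

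Class II antigen presentation genes were lower in replicate 1, by most in treated cells labelled CASP1. Of 12 genes 5 were below the range in all 4 groups and 0 above, beside 5.99% of all genes below it. The median was -0.216, -0.043 and -0.238 in the untreated control, treated control and untreated cells labelled CASP1, and -0.994 in treated cells labelled CASP1. HLA-DMB, which helps load peptides, read 7.55 in replicate 1 against 7.93, 7.79 and 7.87 in untreated control cells and 9.86 against 10.02, 9.99 and 9.96 with prednisolone. In cells labelled CASP1 it read 7.74 against 7.90, 8.12 and 8.06 untreated and 7.31 against 9.33, 9.36 and 9.35 with prednisolone. The response to prednisolone that all 12 genes had in replicates 2 to 4 (12 called higher, beside 10.9% of all genes) was -0.44 for HLA-DMB in replicate 1 of cells labelled CASP1. Without the treated cells labelled CASP1, 5 of 12 were below the range in 3 groups and 1 above, beside 10.2% and 10.9% of all genes, and the median was -0.186. Without the treated control cells instead, 9 of 12 were below it and the median was -0.456.

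The response was then compared within each line, a choice made after seeing the data. In control cells 0 of 12 class II genes differed between replicate 1 and the others at a limma adjusted p under 0.05 (3 at an unadjusted p under 0.05), beside 0.243% of all genes positive and 0.292% negative. Within the line labelled CASP1, 9 of 12 had a smaller response in replicate 1, beside 5.55%. The median response of the 12 genes was 1.52 in replicate 1 and 1.25 in the others in control cells, and -0.118 and 0.707 in cells labelled CASP1. The difference between the lines in this change was itself negative for 8 of 12, beside 2.58% of all genes. For HLA-DMB it was -1.94 (SE 0.21, limma adjusted p = 0.000881) and for HLA-DOA -1.58 (SE 0.21, adjusted p = 0.00265). The response of CIITA, the activator of class II transcription, was 0.83 in replicate 1 and 1.68 in the others in cells labelled CASP1, and its change of -0.85 (SE 0.25, adjusted p = 0.0503) was not called. HLA-DQB1 and HLA-DOB were not called either. Each of these rests on 1 array of replicate 1 in each group. The array of treated cells labelled CASP1 deviated most over all genes, with 369 at least 2-fold below the mean of the others. In the remaining groups this count was 47 to 87. That array enters every comparison within the line labelled CASP1. Whether the class II change goes beyond the deviation of that whole array was not tested.

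**Figure D4:**
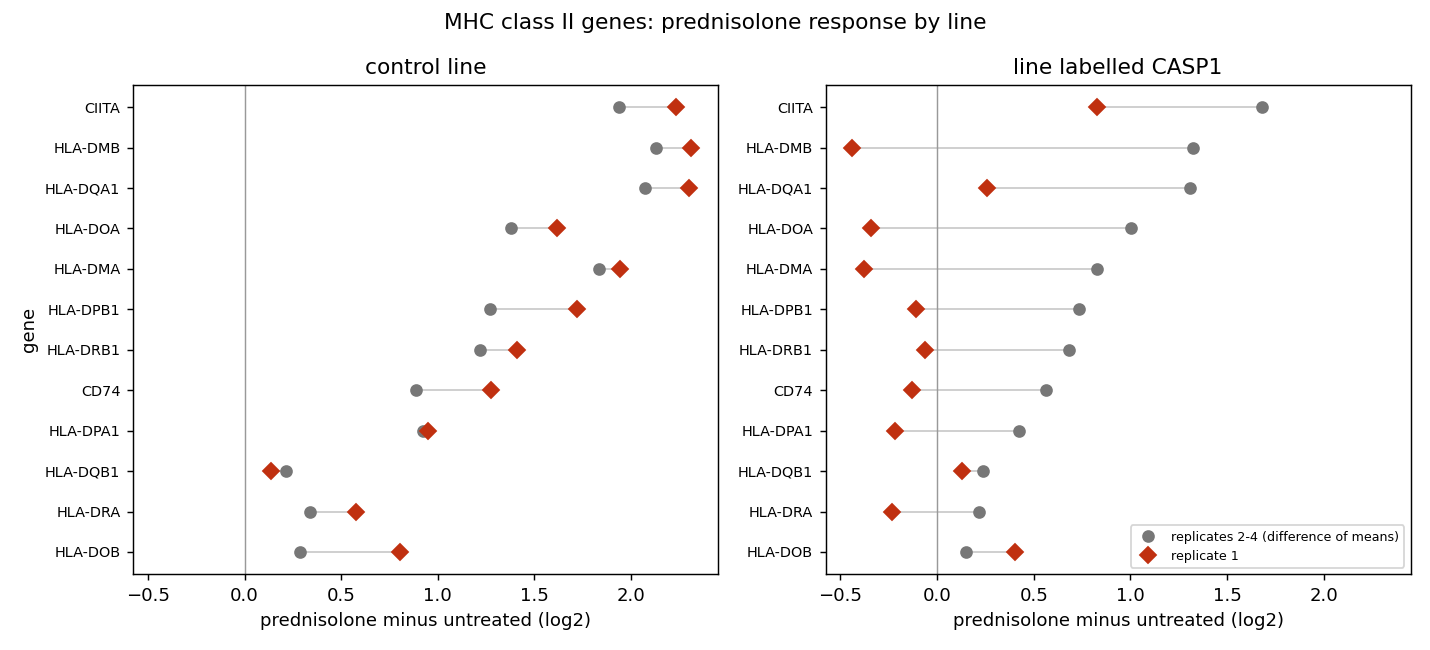
Prednisolone minus untreated signal (log2) of the 12 class II genes in control cells (left) and in cells labelled CASP1 (right). Red diamonds are replicate 1 and grey points the difference of the means of replicates 2 to 4. On the right, the diamonds of the 9 called genes lie left of the points, and 8 of these 9 lie below 0.

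Over all genes, the prednisolone response (mean of both lines) differed in replicate 1 for 394 genes (2.17%), 136 positive (0.75%) and 258 negative (1.42%). In control cells alone 97 genes (0.535%) differed and in cells labelled CASP1 alone 1457 (8.04%), and the 3-way difference was called for 664 (3.66%). The count of 394 was 186, 25 and 80 without replicate 2, 3 or 4, and 22 in a model with an additive replicate 1 term. The comparison in cells labelled CASP1 includes the replicate 1 array that deviated most from its group (SD 0.404 across genes). Of 30 genes known to be induced by glucocorticoids, 25 rose and 2 fell in replicates 2 to 4, beside 10.9% and 14.1% of all genes. Their response differed in replicate 1 for 2 in the positive and 5 in the negative direction. TSC22D3, the glucocorticoid-induced leucine zipper, read 12.04 in replicate 1 against 12.59 to 12.71 in treated control cells and 12.86 against 12.48 to 12.72 in treated cells labelled CASP1. Its response differed by -0.17 (SE 0.13, limma adjusted p = 0.544) over both lines. By line it was -0.76 (control) and 0.43 (labelled CASP1), neither called alone, and the difference between these was 1.19 (SE 0.25, adjusted p = 0.0224). FKBP5, a chaperone of the receptor, differed by -0.32 (SE 0.15, adjusted p = 0.278). The receptor gene NR3C1 read 11.49 against 11.39 to 11.41 in treated control cells and 11.19 against 10.88 to 10.99 in treated cells labelled CASP1. Its response was larger in replicate 1 by 0.46 over both lines (SE 0.09, limma adjusted p = 0.0192). That response was 1.558 in replicate 1 against 1.134 in the others in control cells, and 1.225 against 0.723 in cells labelled CASP1. By line the change was 0.42 (control), not called alone, and 0.50 (labelled CASP1), called alone.

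Among the genes with a smaller response in replicate 1, TMEM100, a membrane protein, read 8.53 in replicate 1 against 9.58, 9.55 and 9.39 in treated control cells and 6.83 against 8.50, 8.37 and 8.37 in treated cells labelled CASP1. Untreated it read 4.26 against 3.67, 3.45 and 3.47 in control cells and 4.17 against 3.94, 3.44 and 3.47 in cells labelled CASP1, so the response was smaller in both lines, by -1.92 on average (SE 0.17, limma adjusted p = 0.000349). These TMEM100 values are of its brightest probe set (mean signal 6.19). The other one (6.10) was below the range in all 4 groups, at -1.03, so it was lower untreated too. PRDM1, the repressor that drives plasma cell fate, was higher untreated and lower treated in replicate 1 by its brightest probe set. Another of its 5 probe sets was lower in all 4 groups, at -0.32. By the brightest, PRDM1 read 4.32 against 3.21 to 3.49 untreated and 7.25 against 7.55 to 7.69 treated in control cells. In the line labelled CASP1 it read 4.929 against 3.74 to 3.92 and 7.32 against 7.96 to 8.23, and its response differed by -1.60 (SE 0.14, adjusted p = 0.000349). SESN1, a p53 and FOXO target, read 8.42 untreated and 8.28 treated in replicate 1 of control cells, against 7.40 to 7.49 and 8.65 to 8.77 in the others. Its response differed by -1.06 (SE 0.10, adjusted p = 0.000455).

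P2RY14, a receptor for sugar nucleotides, had a smaller response in 1 line. In treated cells labelled CASP1 it read 4.19 in replicate 1 and 7.61, 6.72 and 7.06 in the others, and untreated 3.40 against 2.71, 2.71 and 2.70. In control cells it read 10.81 against 11.12, 10.97 and 10.90 with prednisolone and 3.34 against 3.44, 3.76 and 3.30 untreated. The response was 0.79 in replicate 1 and 4.42 in the others of cells labelled CASP1, and 7.47 and 7.50 in control cells. The difference between the lines in this change was -3.61 (SE 0.50, limma adjusted p = 0.00265). In the additive model its response over both lines was not called (adjusted p = 0.288). COLEC12, a scavenger receptor, had a change of -2.33 in cells labelled CASP1 (SE 0.36, adjusted p = 0.00227) and -0.89 in control cells (SE 0.36, adjusted p = 0.374), and the difference between these was not called (-1.44, adjusted p = 0.137). TOX2, an HMG-box factor, was at -3.14 in control cells (SE 0.25, adjusted p = 7.89e-05) and -0.17 in cells labelled CASP1 (adjusted p = 0.754), and here the difference was called (2.97, SE 0.35, adjusted p = 0.00128). PHF8, a histone demethylase, was at -1.39 over both lines (SE 0.18, adjusted p = 0.00235).

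**Figure D5:**
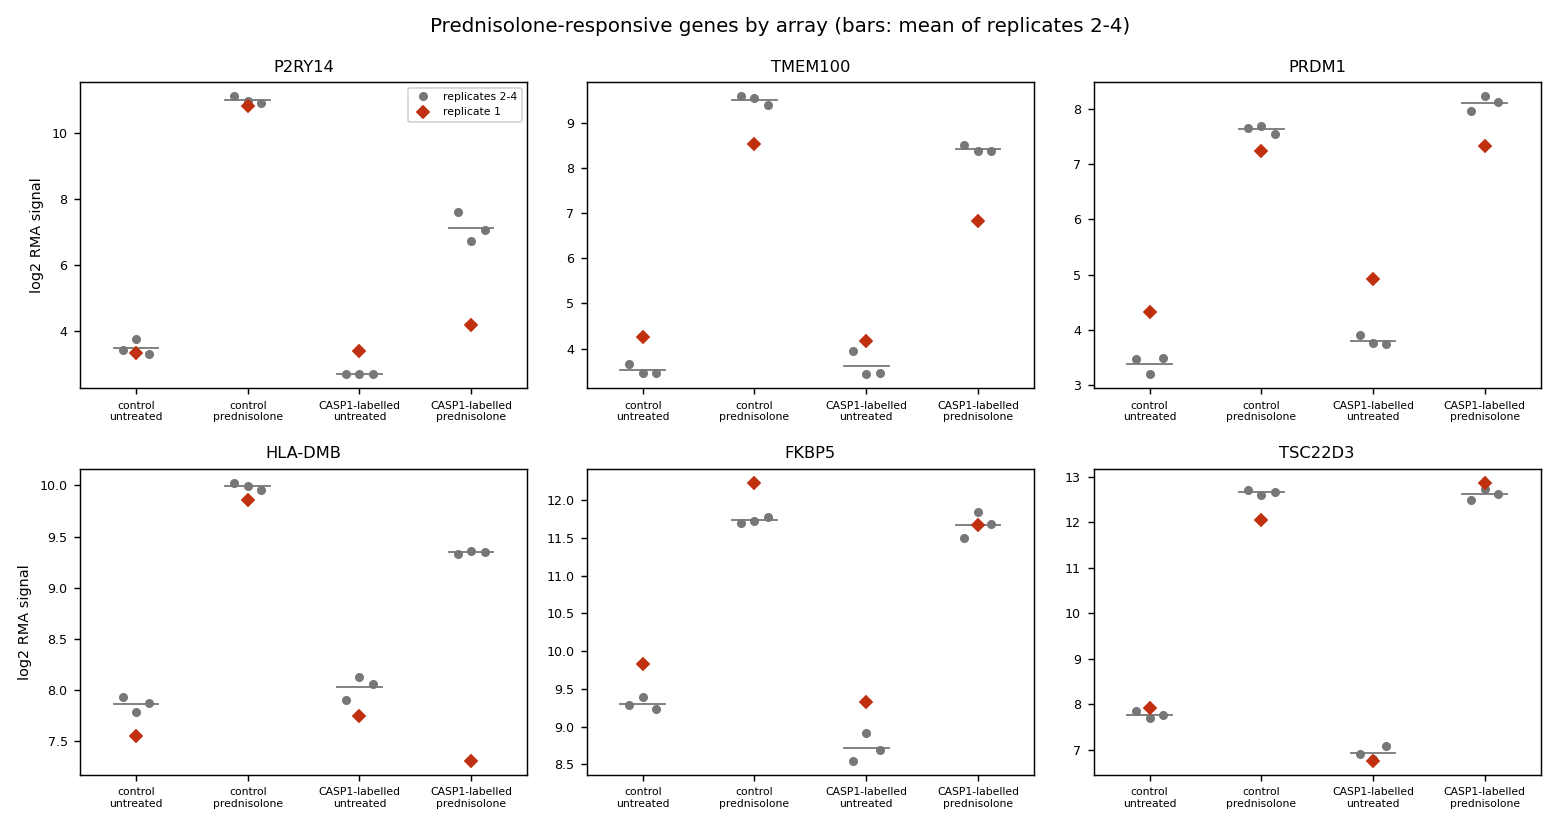
Log2 RMA signal by group of 6 genes that respond to prednisolone. Red diamonds are replicate 1, grey points replicates 2 to 4 and bars their mean. TSC22D3 and FKBP5 are higher on every treated array than on every untreated one, while P2RY14 and HLA-DMB in replicate 1 of treated cells labelled CASP1 lie well below the other 3 arrays.

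Among the genes with a positive difference of the responses, CRYBG2 read 5.89 in replicate 1 against 3.59 to 4.11 in treated control cells and 3.73 against 3.72 to 3.83 in treated cells labelled CASP1, with a difference of 1.35 (SE 0.18, limma adjusted p = 0.00256). By line it was 2.52 (control) and 0.18 (labelled CASP1), a difference of -2.35 (SE 0.35, adjusted p = 0.00402). TAMALIN, a scaffold protein, was at 1.26 (SE 0.15, adjusted p = 0.00133) and MAPK13, a p38 kinase, at 1.11 (SE 0.13, adjusted p = 0.00133), and both were called in each line alone. CHRNA1 was at 1.19 and NKD2 at 1.10. The replication-dependent histone H3C4 was at 1.16 (SE 0.13, adjusted p = 0.00133), reading 7.53 against 6.26 to 6.62 in treated cells labelled CASP1. Its response in control cells was 0.51 in replicate 1 and -0.23 in the others. Clustered histone genes are much alike, and probes may be shared among them. Of 63 such genes 9 had a more positive response in replicate 1, beside 0.75% of all genes, and within cells labelled CASP1 16 were positive, beside 2.48% of all genes.

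The factor ATF4 raises genes of amino acid uptake and synthesis when amino acids are short or the endoplasmic reticulum is stressed. The list's median was 0.589 in untreated control cells, -0.059 in treated control cells, -0.011 in untreated cells labelled CASP1 and 0.305 in treated ones. TRIB3, a pseudokinase that ATF4 induces, read 10.43 in replicate 1 against at most 9.07 in untreated control cells and 9.23 against 7.94 to 8.11 in treated cells labelled CASP1. In the other 2 groups it read 8.47 against 8.40 to 8.49 and 8.83 against 8.59 to 8.73, so it was above its group's range on 3 of the 4 arrays, by least in untreated cells labelled CASP1. Within control cells 12 of 27 genes had a more negative prednisolone response in replicate 1, beside 0.292% of all genes, and within cells labelled CASP1 9 had a more positive one, beside 2.48%. The difference between the lines was positive for 18 of 27, beside 1.09%. For TRIB3 it was 2.41 (SE 0.20, limma adjusted p = 0.000102), for ATF3 2.68 (SE 0.25, adjusted p = 0.000253) and for SESN2 1.83 (SE 0.26, adjusted p = 0.00311).

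Of 32 genes of B-cell precursor identity 2 were above the range and 6 below, beside 6.68% and 5.99% of all genes, with a median of -0.091. CD79A, a signalling chain of the B-cell receptor, was higher at 0.66 (SE 0.10), with all 3 of its probe sets above the range. BTK, a kinase of the same pathway, was at 0.55 (SE 0.08), and 1 of its 2 probe sets was above the range in all groups. RAG1, which cuts antigen receptor genes, read 11.05 in replicate 1 against 11.92 to 12.10 in untreated control cells, 11.61 against 12.20 to 12.37 in treated ones, 12.04 against 12.24 to 12.32 in untreated cells labelled CASP1 and 10.29 against 12.06 to 12.10 in treated ones. Its response within cells labelled CASP1 differed by -1.56 (SE 0.14, limma adjusted p = 0.000218). POU2AF1, a B-cell coactivator, was at -0.75 overall and at -1.59 in treated cells labelled CASP1. SYK, the kinase below the pre-B receptor, had a more negative line difference in replicate 1 at -0.88 (SE 0.10, adjusted p = 0.000261), and MME, the surface marker CD10, at -0.65 (SE 0.09, adjusted p = 0.000898). PAX5, EBF1 and VPREB1 were at -0.03, -0.14 and -0.04.

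For the line difference, PRMT6, an arginine methyltransferase, read 4.03 in replicate 1 against 6.25 to 6.29 in treated cells labelled CASP1 and 5.34 against 5.80 to 6.18 untreated. In control cells it read 7.19 against 6.90 to 7.21 and 7.44 against 6.88 to 6.93, so the lines lay further apart in replicate 1 by -1.80 (SE 0.14, limma adjusted p = 6.19e-05). BCL6, a repressor of germinal centre cells, read 7.86 against 8.14 to 8.18 in untreated control cells and 6.89 against 5.96 to 6.29 in untreated cells labelled CASP1. Treated arrays read 6.77 against 7.67 to 7.82 in the control line and 7.85 against 6.70 to 7.25 in the line labelled CASP1. The lines thus lay closer untreated, while treated their order was turned, and the line difference changed by 1.42 (SE 0.17, limma adjusted p = 0.00036). B4GALT6, a lactosylceramide synthase, was at 5.53 against 3.37 to 3.80 in untreated control cells and changed by -1.77 (SE 0.21, adjusted p = 0.00029). Further negative values were KLRC3 at -1.82, ADAMTS17 at -1.52, AP3M2 at -1.49 and WDR5B at -1.45. Positive ones were GH1 at 1.81, AOC3 at 1.78, TENM2 at 1.54, LCORL at 1.51 and ZNF91 at 1.45, and GH1, one of several near-identical growth hormone genes, read 3.98 to 5.63 over the 16 arrays. Over both treatments the line difference was called for 2113 genes (11.7%). Over the same 18132 genes, the comparison in untreated arrays alone called 199 (1.1%; 0.651% positive and 0.447% negative) and that in treated arrays alone 2604 (14.4%; 5.63% and 8.73%), a choice made after seeing the data. The count of 2113 was 2563, 854 and 867 without replicate 2, 3 or 4, and 959 in the additive model.

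Cytosolic ribosomal proteins had 13 of 65 below the range and 1 above, beside 5.99% and 6.68% of all genes, with a median of -0.05. This count moved with the scaling, to 4 below when arrays were centred on the 75th percentile and to 8 below and 5 above when quantile normalized. Without treated cells labelled CASP1 it was 30 below, beside 10.2% of all genes by that rule in 3 groups. The respiratory chain had 15 above and 8 below of 83, with a median of 0.03. Without treated cells labelled CASP1 it had 22 above and 16 below in 3 groups, beside 10.9% and 10.2% of all genes. Interferon-stimulated genes had a median of 0.051, NF-kappaB targets of -0.012 and cholesterol synthesis of -0.102. HSPB1, a small heat shock protein, was at 0.53 while HSPA1B and DNAJB1 were at -1.34 and -0.40, and the heat shock list had 2 above and 4 below of 18.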

How the data were processed

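Nalm6 RNA was measured on 16 PrimeView arrays, and the deposited values are log2 signals that the authors made with RMA, per the submitters' processing notes without a version. RMA sets arrays to 1 scale, so a change in total RNA per cell was not measured. The 44988 probe sets with 1 gene gave 18132 genes, each by its brightest probe set over all arrays. 1832 probe sets with several genes and 2473 with none were left out.

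The arrays compared and the 31 gene lists (793 genes measured) were chosen with earlier results of these data known. limma 3.58.1 under R 4.3.3 fitted 8 means (4 groups by replicate 1 or others) with 8 residual degrees of freedom. Replicate 1 had 1 array a group, so the spread comes from replicates 2 to 4 (median SD 0.124), and replicate 1 is assumed to vary alike. The prednisolone and line contrasts with replicate 1 are other than its mean difference from the others. They use the same arrays, which were chosen for standing apart, so their p-values are not independent of that choice. Each contrast was adjusted over all genes by Benjamini and Hochberg, two-sided, called under 0.05. Replicates 2 to 4 alone were fitted with 4 means. No label ties an array to a culture of its own. The p-values therefore measure the spread between these samples alone, which may be technical. The script was tested on simulated data.

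Named genes were the 14 largest excesses and 14 largest deficits outside the range in all groups, the 6 largest called values each way of both contrasts, up to 4 members of each list, CASP1, NR3C1, TSC22D3 and FKBP5. Placeholder symbols were passed over, and other list members named were chosen after their values were seen. Promoters came from the RefSeq table of GRCh38.p14. Alternatives were other probe set rules, normalizations and filters, left-out arrays, other models and a replicate block.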

Additional observations from a re-analysis of the deposited data

Results flagged for a closer look

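In 11 of 28 groups of 4 arrays, replicate 1 lay far from the other 3 by Dixon's criterion. The replicate 1 arrays were chosen because they stood apart, so this restates that choice, is no test, and is not set against the rate of about 1 in 20 groups that chance gives. The poly-A controls were at 9.42 in replicate 1 of treated cells labelled CASP1, and bioB and bioC were at 8.42 in untreated control cells. The mean of the glycolysis and hypoxia list was 8.66 untreated and 8.55 treated in the control line, and 8.39 untreated in the line labelled CASP1. The G2 and mitosis mean was 10.32 in untreated and 10.54 in treated cells labelled CASP1. The p53 target mean was 8.30 in untreated cells labelled CASP1, and the class II mean was 7.83 in treated ones. Untreated, the BCL2 family mean was 7.48 in the control line and 7.66 in the line labelled CASP1.

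The prednisolone response differed between replicate 1 and replicates 2 to 4 by limma's test for these 12 genes, given as the log2 difference of the responses. They were CRYBG2 at 1.35, TAMALIN at 1.26, CHRNA1 at 1.19, H3C4 at 1.16, MAPK13 at 1.11, NKD2 at 1.10, TMEM100 at -1.92, P2RY14 at -1.83, TOX2 at -1.65, COLEC12 at -1.61, PRDM1 at -1.60 and PHF8 at -1.39. The line difference changed for 12 more, with GH1 at 1.81, AOC3 at 1.78, TENM2 at 1.54, LCORL at 1.51, ZNF91 at 1.45, BCL6 at 1.42, KLRC3 at -1.82, PRMT6 at -1.80, B4GALT6 at -1.77, ADAMTS17 at -1.52, AP3M2 at -1.49 and WDR5B at -1.45.

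The poly-A control probe sets are outside the main measurement, and replicate 1 exceeded replicates 2 to 4 by 0.904 there.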

How the results depend on the processing

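With the mean of the probe sets of a gene, 18 genes were higher and 23 lower in replicate 1 by the 2-fold rule in place of 30 and 40, and COL1A2, a stromal marker near the floor, reversed to 0.0166. At a fold of 1.5 the counts were 155 and 180. Leaving out 1 group's replicate 1 gave 27 to 40 higher and 35 to 53 lower, and leaving out replicate 2, 3 or 4 gave 26 to 32 and 37 to 43. For the prednisolone response in replicate 1 against that in the others, the count of 394 was 25 to 186 without replicate 2, 3 or 4 (25 without number 3, 80 without number 4 and 186 without number 2), 22 in the additive model, 831 with trend and robust options, 97 in control cells alone and 1457 in cells labelled CASP1 alone. For the line difference, 2113 became 854 to 2563 without replicate 2, 3 or 4, 959 in the additive model and 199 in untreated arrays alone. The prednisolone count in replicates 2 to 4 was 2847 to 4149 without 1 of them, against 4530, and the line count was 3704 to 4840, against 5431. The replicate numbers did not pair the arrays (correlations of deviations of -0.247 to 0.181 among numbers 2 to 4), and with the replicate block 254 genes were called for the prednisolone response and 1970 for the line difference. Of the named genes, the prednisolone difference of CRYBG2, CHRNA1, MAPK13, P2RY14, TOX2 and COLEC12 was no longer called in the additive model. NKD2 was not called without replicate 3, nor ZNF91 without replicate 4. The list counts for glycolysis and hypoxia were 19 and 20 of 29 when the arrays were quantile normalized again or centred on the 75th percentile, and the shift of the median of all genes was under 0.01. Replicate 1 has 1 array a group, and this number limits the precision of each test. Causes were not tested.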
